A study of Mus musculus with 62 samples.

Results

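Ppara targets and fasting-type genes were followed in RNA-seq of liver and fat from mice with and without Fam13a. They are 8 genes of the 48795 in the count table, taken by name: the nuclear receptor gene Ppara, the genes of the secreted proteins Fgf21 and Angptl4, and the enzyme genes Cpt1a, Ehhadh, Acot1, Vnn1 and Pdk4. The mice were whole-body Fam13a knockouts (KO) or wild-type controls (WT) on a C57BL6 background, the knockout allele having come from embryonic stem cells with LoxP sites on both sides of exon 5. Males ate chow, with 18% of calories from fat, or a high-fat diet (HFD) with 45%, and females were on HFD only. HFD began at 8 weeks of age and lasted 14 weeks, up to 22 weeks. An overnight fast before killing is stated for the mice whose tissues went to histology. Whether it held for the mice of the RNA libraries, the age of the chow mice among them and the hour of collection were not given in the sources used here. The 62 libraries held 16 of male liver (4 for each genotype and diet), 23 of inguinal fat (SAT) and 23 of gonadal fat (VAT), each fat depot with 4 libraries in every group except the female WT group, which had 3. The labels did not say that each library was a separate animal, so the p-values measure the spread between these libraries, which may be technical in part. Replicate numbers below only name libraries in the order in which they were listed.

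PPARα, the protein of Ppara, is a nuclear receptor that binds DNA with a retinoid X receptor and is activated by fatty acids and their derivatives. In the fasted liver it is known for switching on the uptake, activation and oxidation of fatty acids, the making of ketone bodies, and the hormone FGF21. The other 7 genes are familiar targets of this program in liver, although several, such as Pdk4 and Angptl4, also answer to other PPARs, to glucocorticoids or to low insulin in other tissues.

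The genes lie on 8 chromosomes of the GRCm38 assembly and all are protein-coding. Ppara is at chr15:85734983-85802819 on the forward strand, Fgf21 at chr7:45613886-45615490 on the reverse strand, Cpt1a at chr19:3322334-3385733 on the forward strand and Acot1 at chr12:84009490-84018371 on the forward strand. Pdk4 is at chr6:5483351-5496309 on the reverse strand, Vnn1 at chr10:23894688-23905343 on the forward strand, Ehhadh at chr16:21761287-21787807 on the reverse strand and Angptl4 at chr17:33773750-33781830 on the reverse strand. The RefSeq promoter table matched 6 of the 8 by symbol. The sequences upstream of Fgf21 (chr7:45615491-45615740), Pdk4 (chr6:5496310-5496528) and Ehhadh (chr16:21787835-21788084) are shown because these genes had the largest fitted differences between the diets in liver. They are from RefSeq on GRCm38.p6, read 5′ to 3′ along the reverse strand, and end at the base before the RefSeq start or, for Pdk4, whose RefSeq start lies inside the gene given above, at the base before that gene. Capitals mark matches on either strand to TGATGCAA (the core of an amino acid response element), CACGTG (an E-box), TATAAA or CCAAT.
Fgf21: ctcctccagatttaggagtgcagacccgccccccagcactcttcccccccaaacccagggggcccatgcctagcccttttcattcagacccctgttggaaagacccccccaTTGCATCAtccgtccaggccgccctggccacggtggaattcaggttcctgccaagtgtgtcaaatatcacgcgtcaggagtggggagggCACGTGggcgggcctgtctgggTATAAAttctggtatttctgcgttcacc
Pdk4: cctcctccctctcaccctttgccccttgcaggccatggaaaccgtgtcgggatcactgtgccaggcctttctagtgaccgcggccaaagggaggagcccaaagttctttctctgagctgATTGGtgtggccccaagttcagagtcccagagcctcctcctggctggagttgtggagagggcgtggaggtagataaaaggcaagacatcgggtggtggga
Ehhadh: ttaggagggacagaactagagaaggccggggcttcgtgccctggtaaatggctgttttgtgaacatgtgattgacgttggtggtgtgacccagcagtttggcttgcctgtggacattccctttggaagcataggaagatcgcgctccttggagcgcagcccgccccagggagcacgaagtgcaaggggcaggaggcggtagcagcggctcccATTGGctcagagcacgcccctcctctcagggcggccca
The Fgf21 window held TGATGCAA on the opposite strand, CACGTG and TATAAA, with first bases at -139, -50 and -28 from the RefSeq start. The Pdk4 and Ehhadh windows each held CCAAT on the opposite strand, at -131 and -38, counted in both from the RefSeq start. Of 32851 promoter windows in the table, TGATGCAA was in 0.791%, CACGTG in 6.02%, TATAAA in 12.4% and CCAAT in 33.8%. The direct repeat AGGTCA, any base, AGGTCA, a spelling of the element that PPARα binds with its partner, was in 0.0335% of all windows and in none of the 6 matched here. A single AGGTCA, in 14% of all windows, was found only in that of Cpt1a among the 6, at -94 on the opposite strand. These matches describe letters and were not tested for binding.

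Library totals ran from 4959783 to 28723319 counts (median 21694089), and a single ribosomal RNA gene took 0.0127% to 75.4% of them. It took over 10% in 16 libraries, of which 4 were liver: HFD KO replicate 3 (75.4%), chow KO replicates 1 and 4, and chow WT replicate 3. Levels below are CPM, counts relative to the library total after TMM scaling. Fam13a itself, the targeted gene, was measured at 28.7 to 46.6 CPM in chow WT liver and 19.6 to 39.1 in chow KO liver, overlapping because KO replicate 4 was at 39.1. On HFD it was 19.3 to 24.8 CPM in WT and 10.8 to 16.9 in KO, without overlap. The fitted liver difference, KO against WT, was -0.68 on the log2 scale (SE 0.14, edgeR quasi-likelihood test, adjusted p = 0.235). In male SAT the genotypes did not overlap: Fam13a was at 280 to 362 CPM in chow WT, 103 to 226 in chow KO, 69.2 to 92.2 in HFD WT and 32.6 to 56.2 in HFD KO. They overlapped in female SAT, with WT at 105 to 147 CPM and KO at 36.1 to 146, and in every VAT pair, as in HFD males with WT at 14.7 to 34.0 CPM and KO at 13.1 to 27.5. These counts cover the whole gene and so include exons outside the deleted one, and they do not separate the genotype labels in VAT. Hepatocyte markers summed to 40140 to 65499 CPM over the 16 liver libraries, while epididymal markers stayed at or below 0.335 CPM and muscle markers at or below 1.24.

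In liver, 7 of the 8 genes differed between the diets at a false discovery rate (FDR) of 10% in edgeR's quasi-likelihood test adjusted for genotype: Ppara was higher on HFD, and Ehhadh, Fgf21, Pdk4, Acot1, Angptl4 and Cpt1a were lower. The same call was made for 40.8% of the 14476 genes tested in liver. The 8 log2 fold changes had a median of -0.88, against -0.00 over all genes tested. Every chow liver library was from 1 sequencing lane and all HFD liver libraries from other lanes, so diet and lane cannot be told apart.

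Ppara was at 154, 185, 147 and 176 CPM in the 4 chow WT livers and at 187, 200, 178 and 142 in the chow KO livers. The HFD livers held 206, 229, 226 and 240 CPM in WT and 235, 233, 211 and 239 in KO. All 8 HFD libraries were above all 8 chow libraries. The receptor transcript was thus 1.33-fold higher on HFD (log2 0.41, SE 0.07, edgeR adjusted p = 0.000289). The exact permutation test within genotypes gave p = 0.000408, the smallest that its 4900 regroupings allow.

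Fgf21 encodes a liver hormone of fasting and of amino acid shortage that acts on fat and brain through FGF receptors and the coreceptor β-Klotho. Its level was 7.81, 9.72, 6.37 and 11.1 CPM in chow WT livers and 13.7, 7.88, 11.5 and 4.05 in chow KO livers. In HFD livers the level was 5.59, 1.09, 1.22 and 1.41 CPM in WT and 2.34, 1.29, 0.67 and 2.87 in KO. The ranges overlapped at a single point, HFD WT replicate 1 lying above chow KO replicate 4. That HFD library was also the only one of its group from another lane. Fgf21 was 4.09-fold lower on HFD (log2 -2.03, SE 0.31, edgeR adjusted p = 6.04e-05), and -2.45 without HFD WT replicate 1. The HFD KO library with 75.4% ribosomal RNA had 1 Fgf21 count, and without it the log2 difference was -2.01.

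Angptl4 encodes a secreted inhibitor of lipoprotein lipase, the enzyme that frees fatty acids from circulating triglycerides. It was at 89.9, 108, 82.4 and 97.8 CPM in chow WT and 119, 120, 110 and 76.8 in chow KO livers. HFD livers had 65.4, 45.1, 47.5 and 45.2 CPM in WT and 64.8, 50.4, 66.1 and 104 in KO. The WT groups did not overlap, while among the KO libraries HFD replicate 4 lay inside the chow range. Angptl4 was 1.66-fold lower on HFD (log2 -0.73, SE 0.14, edgeR adjusted p = 0.000386).

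Ehhadh, the bifunctional enzyme of the peroxisomal β-oxidation of fatty acids, had the highest level per exon length of the 8 in chow WT liver, with a median of 1303 TPM (counts per exon length, relative to the library total). It was at 1205, 2498, 1017 and 1774 CPM in WT and 2245, 1989, 3099 and 1528 in KO on chow. The values on HFD were 545, 409, 387 and 328 CPM in WT and 423, 404, 347 and 441 in KO. The lowest chow library was above the highest HFD library in both genotypes. Ehhadh was 4.62-fold lower on HFD (log2 -2.21, SE 0.19, edgeR adjusted p = 1.11e-07; exact permutation p = 0.000408 within genotypes).

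Pdk4, a kinase that turns off pyruvate dehydrogenase and so spares glucose in fasting, was at 30.8, 25.0, 8.13 and 8.72 CPM in chow WT livers and 39.0, 19.0, 12.7 and 12.02 in chow KO livers. On HFD it was at 7.54, 3.92, 3.41 and 4.59 CPM in WT and 5.53, 3.44, 6.74 and 4.19 in KO. The chow libraries spread from 8.13 to 39.0 CPM, and none reached down into the HFD range. Pdk4 was 4.05-fold lower on HFD (log2 -2.02, SE 0.30, edgeR adjusted p = 4.25e-05).

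Cpt1a, the outer mitochondrial membrane enzyme that commits long-chain fatty acids to oxidation, was at 723, 819, 960 and 932 CPM in chow WT and 593, 657, 773 and 759 in chow KO livers. HFD values of Cpt1a were 682, 545, 597 and 615 CPM in WT and 633, 594, 582 and 583 in KO. WT libraries separated by diet and KO libraries overlapped. The diet difference over both genotypes was the smallest called among the 8, 1.28-fold lower on HFD (log2 -0.36, SE 0.09, edgeR adjusted p = 0.0032).

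Acot1 encodes a cytosolic thioesterase that frees fatty acids from coenzyme A. It was at 70.8, 105, 29.3 and 26.3 CPM in chow WT livers and 132, 137, 128 and 54.6 in chow KO livers. Acot1 on HFD was at 38.9, 43.3, 39.0 and 37.8 CPM in WT and 45.8, 35.7, 34.4 and 40.9 in KO. The HFD libraries lay within a narrow band, with 2 chow WT libraries above it and 2 below. Acot1 was 2.02-fold lower on HFD (log2 -1.02, SE 0.26, edgeR adjusted p = 0.00559). Of the 50-base windows in its exons, 19.2% also occur in other genes, among them Acot2 to Acot6. How far its count took in reads from these windows is uncertain. Its paralog Acot2 gave -0.52 (SE 0.24, adjusted p = 0.112) in the same comparison.

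Vnn1, a membrane pantetheinase that releases pantothenate and cysteamine from pantetheine, was the member not called. It was at 89.3, 160, 34.5 and 71.3 CPM in chow WT livers and 179, 179, 165 and 85.9 in chow KO livers. On HFD it was at 150, 183, 161 and 156 CPM in WT and 160, 149, 171 and 122 in KO. HFD libraries were alike in both genotypes, and the chow libraries ranged from 34.5 to 179. The diet difference was 0.43 (log2, SE 0.24, edgeR adjusted p = 0.177). It passed the threshold without chow WT replicate 2, at 0.59 (adjusted p = 0.0724), and with 2 surrogate variables in the fit, at 0.53 (adjusted p = 0.0325).

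**Figure D1:**
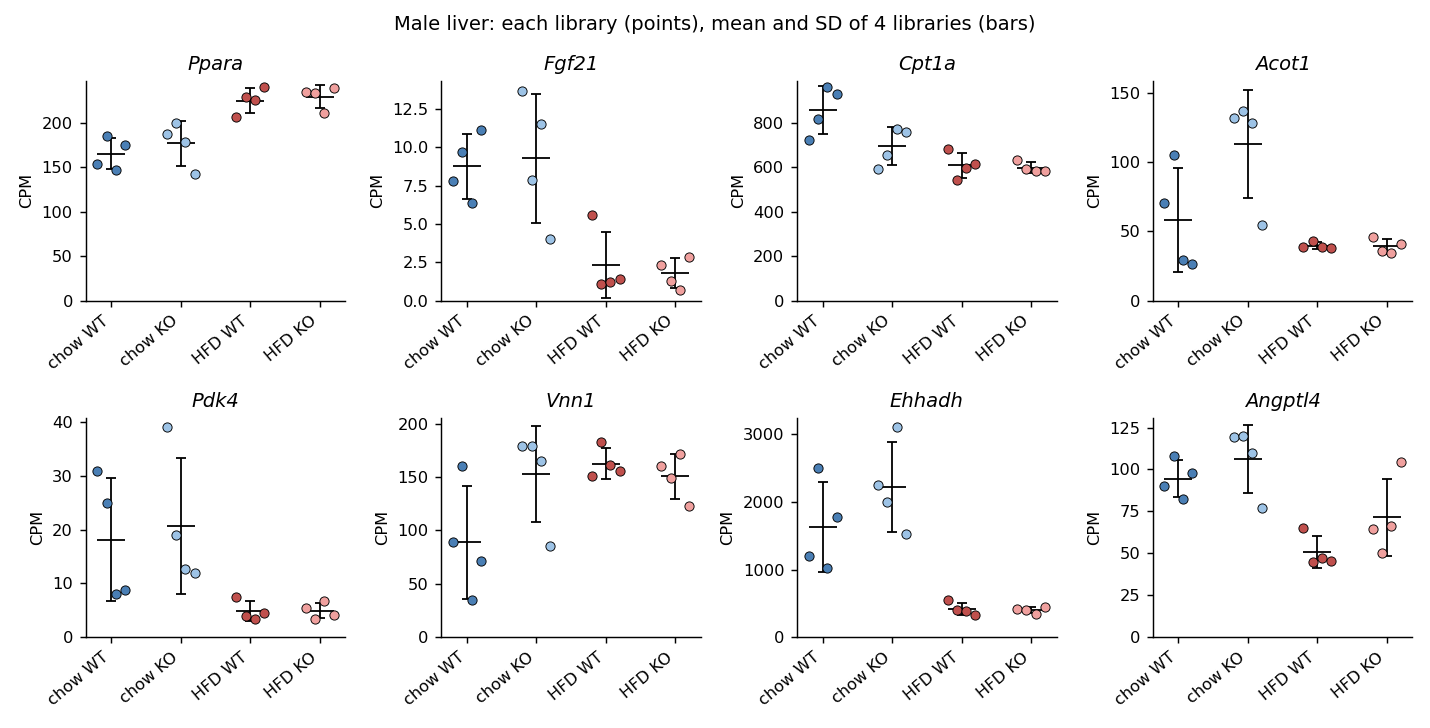
Level of each gene in CPM (linear axis from 0) in the 16 male liver libraries, by diet and genotype. Points are libraries, and bars are the mean and SD of 4 libraries; Ppara sits higher in all 8 HFD libraries, and Pdk4 and Ehhadh lower in all 8.

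Within WT mice alone, 7 of the 8 genes differed between the diets in liver, against 30.0% of all genes tested. Vnn1 was called there, higher on HFD by 0.87 (log2, SE 0.30, edgeR adjusted p = 0.0463), and Acot1 was not (-0.55, SE 0.33, adjusted p = 0.254). Vnn1 gave 0.77 (adjusted p = 0.113) without chow WT replicate 4 and 1.31 (adjusted p = 0.00194) without chow WT replicate 2. Acot1 gave -0.80 (adjusted p = 0.0729) without chow WT replicate 4 and -0.10 (adjusted p = 0.863) without chow WT replicate 2. Within KO mice 6 of the 8 differed, against 21.6% of all genes. There Acot1 was lower on HFD by log2 -1.51 (SE 0.35, edgeR adjusted p = 0.0066), the chow and HFD ranges not overlapping. Vnn1 (-0.02, SE 0.30, adjusted p = 0.98) and Cpt1a (-0.22, SE 0.12, adjusted p = 0.221) were not called in KO. The Angptl4 value in KO, -0.56 (SE 0.19, adjusted p = 0.0533), lost its call without chow KO replicate 1, 2 or 3 or HFD KO replicate 1, 2 or 3. The test of the difference between genotypes in the diet effect called none of the 8 genes, and 0% of all genes. Its values for Vnn1 and Acot1 were -0.89 (SE 0.43, edgeR adjusted p = 0.779) and -0.95 (SE 0.48, adjusted p = 0.79). The unadjusted p was not under 0.05 for any of the 8 in that test, and DESeq2 called 0 of them as well.

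No member was called between KO and WT liver over both diets in edgeR, where the share of all genes called was 0%, and DESeq2 called 0 of the 8 as well. The only unadjusted p under 0.05 among the 8 was that of Angptl4, at 0.33 (log2, SE 0.14, edgeR adjusted p = 0.435). On chow, all liver libraries shared a lane, and 0 of the 8 were called against 0.00691% of all genes (1 of 14476). There the unadjusted p was under 0.05 for 3 genes: Acot1 at 0.95 (SE 0.34, edgeR adjusted p = 0.502), Vnn1 at 0.77 (SE 0.30, adjusted p = 0.548) and Cpt1a at -0.30 (SE 0.12, adjusted p = 0.534). For both Acot1 and Vnn1, chow KO replicate 4 lay well below the other 3 KO libraries, inside the WT range. That library also had 30.5% ribosomal RNA and Fam13a at 39.1 CPM, again inside the WT range. Chow KO replicate 1, with 45.9% ribosomal RNA, was not low for either gene. Without replicate 4 the differences were 1.18 for Acot1 (edgeR adjusted p = 0.182) and 0.97 for Vnn1 (adjusted p = 0.2). On HFD, 0 of the 8 were called against 0.0622% of all genes, with an unadjusted p under 0.05 for Angptl4 alone, at 0.50 (SE 0.19, edgeR adjusted p = 0.503). Acot1 was at 0.00 (SE 0.34) on HFD.

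**Figure D2:**
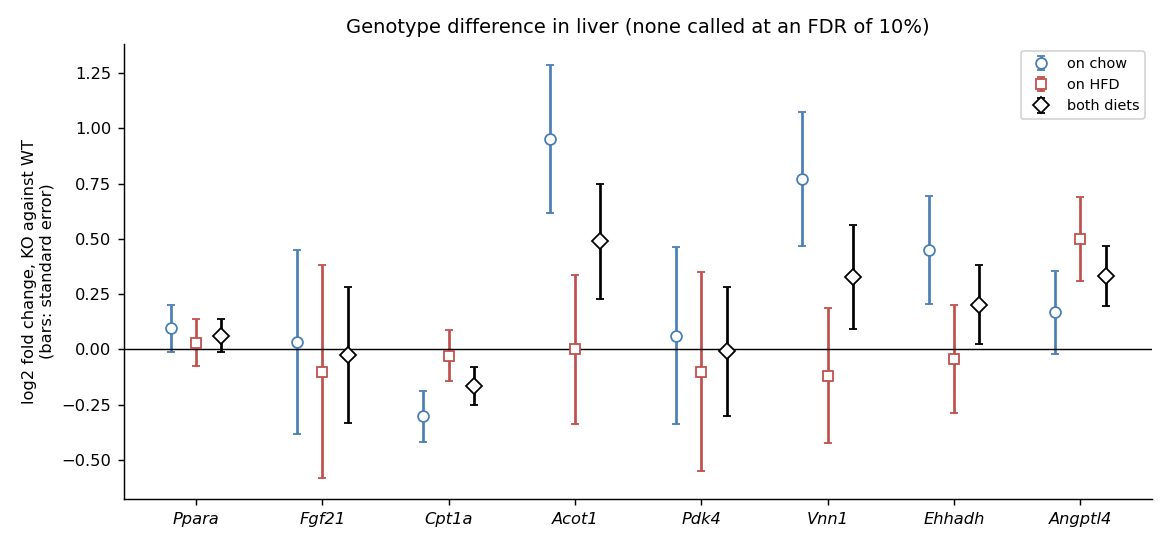
Fitted log2 fold change of KO against WT in liver for each gene on chow (circles), on HFD (squares) and over both diets (diamonds), with standard errors. None passed an FDR of 10%; Acot1 on chow was farthest from 0, at 0.95.

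After the group means were subtracted, the members varied together across the 16 liver libraries to unequal degrees. Pearson's r of log2 CPM was 0.84 between Acot1 and Vnn1 and 0.74 between Fgf21 and Angptl4. For Cpt1a it was -0.58 with Acot1, -0.61 with Pdk4, -0.54 with Vnn1, -0.36 with Ppara, -0.11 with Angptl4, 0.08 with Ehhadh and 0.16 with Fgf21. These libraries share lanes, and deeper ones measure low genes better, so the r values are descriptions. Ribosomal RNA also ran from 0.0127% to 75.4% of counts over them. Chow KO replicate 4 lay below its group for both Acot1 and Vnn1, and r without it was not computed. Among all tested genes, the closest by this measure were Entpd5 for Ppara (0.95), Gm37407 for Fgf21 (0.89), Dicer1 for Cpt1a (0.92), Pdk1 for Acot1 (0.90), Slc39a8 for Pdk4 (0.85), Gm15441 for Vnn1 (0.93), Igsf11 for Ehhadh (0.92) and Plpp1 for Angptl4 (0.85). The next were Slc35a3 and Aldh1a1 for Ppara, Rtn4rl1 and Scn4b for Fgf21, and Cgref1 and Dpy19l1 for Cpt1a. For Acot1 they were Acot2, which shares exon sequence with it, and Amy1. For the rest they were Gbp4 and Rftn1 for Pdk4, Spp2 and Sgf29 for Vnn1, Sqstm1 and Hsd17b7 for Ehhadh, and Lipg and Serinc3 for Angptl4.

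Most lists of other genes of these pathways held both higher and lower genes in liver. Over all 14476 genes tested, to be set beside this and the lists below, 2989 were higher on HFD and 2923 lower (40.8% called). Of 19 tested genes of peroxisomal fatty acid oxidation, 3 were higher on HFD and 4 lower, and of 16 of the mitochondrial pathway 4 were higher and 8 lower. Crot, which makes carnitine esters of medium-chain products in peroxisomes, was lower (log2 -0.90, SE 0.11), as was Hacl1 (-0.83, SE 0.09), and the oxidase gene Acox3 was higher (0.48, SE 0.06). Hadhb, a subunit of the mitochondrial trifunctional protein, was lower (-0.52, SE 0.08) and Hadh higher (0.72, SE 0.09). Of 7 tested omega-oxidation genes, which put a hydroxyl group on the far end of fatty acids, 5 were lower and 0 higher. Cyp4a14 had the smallest p of that list, falling from 3354 to 6213 CPM on chow to 981 to 1985 CPM on HFD (log2 -1.65, SE 0.14, edgeR adjusted p = 1.32e-07). Some Cyp4a genes are close copies of each other. Sequence that Cyp4a14 shares with them was not examined, so its count is uncertain.

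In ketogenesis 2 of 6 tested genes were higher and 2 lower. The monocarboxylate transporter Slc16a1 was lower by log2 -1.46 (SE 0.15). Acyl-CoA thioesterases other than Acot1 were higher in 5 of 9 and lower in 1, with Acot11 at 2.43 (SE 0.20). Of the PPAR family and its partners, 4 of 16 were higher, Pparg among them (1.18, SE 0.16), and 3 lower, with the coactivator gene Ppargc1a at -0.61 (SE 0.18). Fatty acid uptake and activation gave 3 higher and 4 lower of 12, Cd36 being higher by 1.40 (SE 0.14) and Acsl4 lower by -0.71 (SE 0.13). Lipid droplet genes gave 4 higher and 4 lower of 10. Plin5, which joins droplets to mitochondria, was lower (-1.10, SE 0.14), and Plin4 was higher (1.19, SE 0.23).

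Around the 2 secreted members, 1 of 5 tested FGF21 receptor genes was higher (Fgfr3, 0.98, SE 0.10) and 1 lower (Klb, the β-Klotho gene, -0.46, SE 0.08). Of 9 genes of the lipoprotein lipase system, 3 were higher and 2 lower. The lipase cofactor Apoc2 was lower by log2 -1.40 (SE 0.21) and Apoa5 by -0.75 (SE 0.10). Around Pdk4, 4 of 6 kinases, phosphatases and substrates of pyruvate dehydrogenase were higher and 1 lower. Pdk2 rose from 17.9 to 24.8 CPM on chow to 35.2 to 41.5 on HFD (0.86, SE 0.07), opposite in sign to Pdk4, and the phosphatase gene Pdp1 was lower (-0.99, SE 0.27). Around Vnn1, 1 of 8 genes of coenzyme A synthesis was called, Pank2 at 0.29 (SE 0.07).

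Gluconeogenesis and hormone-response genes of fasting were lower in 9 of 16 and higher in 3. Igfbp1, whose transcription insulin suppresses, was at 46.2 to 127 CPM on chow and 2.82 to 14.8 on HFD (log2 -3.21, SE 0.28). G6pc (-1.55, SE 0.17) and Pck1 (-1.34, SE 0.18), both enzymes of glucose output, were lower too, as was Irs2 (-1.14, SE 0.19). Of 12 fatty acid synthesis genes, 6 were higher and 2 lower, with Srebf1 higher by 2.42 (SE 0.14) and Thrsp by 3.44 (SE 0.24). Of 11 genes of the integrated stress response, the amino acid and unfolded-protein pathway that also acts on Fgf21, 3 were higher and 4 lower. Asns was lower by log2 -5.00 (SE 0.63), from 1.15 to 29.4 CPM on chow to at most 0.766 on HFD, and Atf3 was higher (1.57, SE 0.29). The median log2 difference was -0.94 in the omega-oxidation list, -0.58 in the gluconeogenesis list and -0.14 in the mitochondrial list, against -0.00 for all genes.

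Circadian clock genes moved in the same comparison, with 9 of 14 higher and 3 lower. Arntl was lower by log2 -2.74 (SE 0.23) and Per2, Per3 and Dbp higher by 2.61, 2.30 and 2.20. Their part in the members' diet differences was not tested. Macrophage markers were lower on HFD in 4 of 7 tested, summing to 149 to 190 CPM on chow KO, 165 to 182 on chow WT, 108 to 150 on HFD KO and 109 to 192 on HFD WT, and their part in the members' values was not tested either. In bulk tissue, fewer cells of a type and less RNA per cell cannot be told apart. Between KO and WT liver over both diets, 0 genes of any of these lists were called by edgeR.

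**Figure D3:**
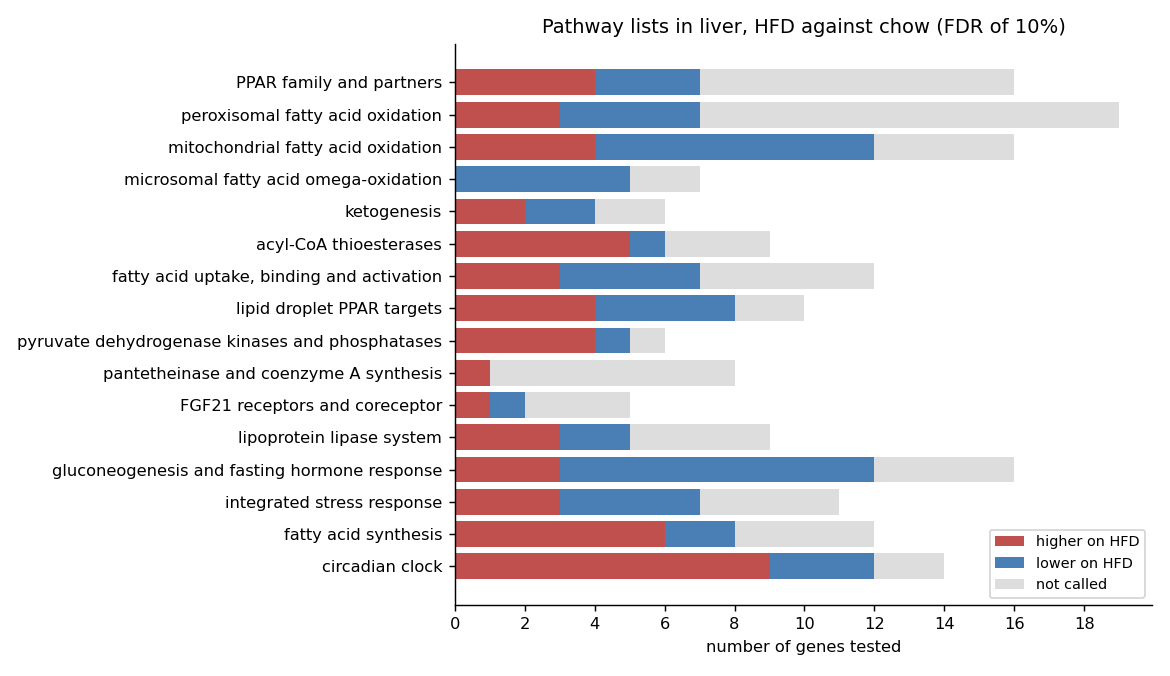
Number of genes tested in each pathway list in liver (x axis), divided into those higher on HFD, lower on HFD and not called at an FDR of 10%. Gluconeogenesis had 9 of 16 lower, omega-oxidation 5 of 7 lower, and fatty acid synthesis 6 of 12 higher. Of all 14476 genes tested, 2989 were higher and 2923 lower.

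Across tissues, levels were compared in TPM, per exon length, in the 4 WT males on chow. Medians of Ehhadh were 1303 TPM in liver, 74.9 in VAT and 47.2 in SAT. Those of Cpt1a were 297, 39.7 and 34.1 TPM, and those of Ppara 114, 8.95 and 5.36 TPM in the same order. Acot1 stood at 33.3, 0.672 and 0.579 TPM. For these 4 genes liver was above VAT without overlap (exact permutation p = 0.0286 each, the smallest that 4 against 4 allows), and VAT and SAT overlapped. Fgf21 fell in the order liver, VAT and SAT at 23.3, 3.48 and 1.26 TPM, with no overlap between neighbours. Pdk4 and Angptl4 were lowest in liver. Pdk4 was at 218 TPM in VAT, 139 in SAT and 12.3 in liver, and Angptl4 at 355, 182 and 69.0, liver being below SAT without overlap for both. Vnn1 had medians of 95.0 in VAT, 86.1 in liver and 74.2 in SAT, with overlapping ranges. The 3 tissues were sequenced in different lanes, so tissue and lane cannot be told apart.

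In SAT, 5 of the 8 genes were called between the diets, against 57.4% of all 18366 genes tested. Angptl4 was at 193, 274, 161 and 292 CPM in chow WT males and 554, 731, 494 and 254 in chow KO males. Male SAT on HFD held 507, 454, 552 and 552 CPM in WT and 662, 557, 721 and 530 in KO males. The WT groups separated and the KO groups overlapped. Angptl4 was higher on HFD by log2 0.69 (SE 0.20, edgeR adjusted p = 0.00778), the opposite sign from liver, and by 0.39 (adjusted p = 0.0154) with 2 surrogate variables. Cpt1a was higher by 0.47 (SE 0.11, adjusted p = 0.00192), from 80.4 to 170 CPM on chow to 137 to 153 on HFD in males. It gave only 0.26 without the 6 SAT libraries with over 10% ribosomal RNA, a fit with a lone chow WT library. Vnn1 was lower by -1.07 (SE 0.33, adjusted p = 0.0114), from 29.3 to 247 CPM on chow to 36.9 to 68.8 on HFD.

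Fgf21 (0.70, SE 0.35, edgeR adjusted p = 0.0992) and Ehhadh (-0.46, SE 0.22, adjusted p = 0.092) only just passed in SAT. The Fgf21 call was lost on leaving out any of 21 of the 23 libraries, the exceptions being chow KO replicate 2, without which it was 1.11 (adjusted p = 0.00458), and HFD male KO replicate 3. Fgf21 was under 2 CPM in every SAT library. The Ehhadh call was lost without any of 10 libraries: chow KO replicates 3 and 4, chow WT replicate 4, HFD male KO replicates 2, 3 and 4, HFD male WT replicates 2 and 3, HFD female KO replicate 3 and HFD female WT replicate 1. Ppara, at -0.47 (SE 0.24, edgeR adjusted p = 0.109), was called when chow KO replicate 2 or 4, chow WT replicate 2, 3 or 4, or HFD male WT replicate 2 or 4 was left out, with values of -0.52 to -0.63, and by DESeq2 (-0.51, adjusted p = 0.072). Lymph node markers were lower on HFD in all 8 tested and muscle markers in 6 of 8. Hepatocyte markers were higher in 7 of 8 and lower in 1, although their sum fell from 739 to 1847 CPM in chow males to 187 to 488 in HFD males. Endothelial markers were higher in 5 of 6, and adipocyte markers higher in 4 of 8 and lower in 1, or within WT higher in 7 of 8 and lower in 1. Ribosomal RNA took over 10% of counts in 3 chow WT libraries and 1 chow KO library, and in 0 of the HFD males. The part of these markers and of RNA quality in the differences was not tested. In male SAT, lymph node markers summed to 203 to 638 CPM in chow WT, 5.45 to 443 in chow KO, 5.14 to 243 in HFD WT and 4.56 to 7.34 in HFD KO. Chow and HFD SAT libraries were sequenced in different lanes, so here too diet and lane cannot be told apart. The title of HFD male KO replicate 1 carried a different run code from those of the other SAT libraries.

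In VAT, 5 of the 8 genes were called between the diets, against 46.9% of all 18975 genes tested. Vnn1 was at 48.5, 55.8, 97.0 and 93.1 CPM in chow WT males and 30.1, 38.0, 118 and 118 in chow KO males. On HFD it was at 9.09, 27.0, 6.92 and 14.3 CPM in WT and 30.7, 33.3, 11.3 and 19.2 in KO. WT libraries separated by diet and KO libraries overlapped at their edge. Vnn1 was 3.99-fold lower on HFD (log2 -1.99, SE 0.37, edgeR adjusted p = 0.000249). Ehhadh (-1.09, SE 0.34, adjusted p = 0.0145), Ppara (-0.72, SE 0.25, adjusted p = 0.0246) and Pdk4 (-0.71, SE 0.26, adjusted p = 0.0339) were lower and Cpt1a (0.63, SE 0.16, adjusted p = 0.00356) higher. Cpt1a was at 95.5, 177, 94.0 and 103 CPM in chow WT and 118, 154, 139 and 75.9 in chow KO males. It was at 162, 208, 228 and 143 CPM in WT and 165, 188, 198 and 184 in KO males on HFD, so that the KO groups separated by diet and the WT groups overlapped. Ppara was at 12.9, 9.64, 13.2 and 4.67 CPM in chow WT males and 4.397, 5.70, 5.79 and 10.6 in chow KO males. On HFD Ppara was at 4.18, 7.02, 2.69 and 5.22 CPM in WT and 5.87, 4.82, 3.76 and 5.77 in KO, with overlap in both genotypes. Ehhadh rested in part on chow KO replicate 4, at 180 CPM where the other male VAT libraries were at or below 87.1, and gave -0.57 (adjusted p = 0.0807) without it. Pdk4 gave -0.53 (adjusted p = 0.113) without chow KO replicate 3. Without the 6 VAT libraries over 10% ribosomal RNA, Ppara, Pdk4 and Ehhadh lost their calls, at -0.53, -0.56 and -0.58.

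Macrophage markers rose in VAT on HFD, all 7 tested, from 211 to 450 summed CPM in chow males to 739 to 1774 in HFD males. Adipocyte markers were lower in 7 of 8 and endothelial markers in 5 of 6. Hepatocyte markers were higher in 5 of 8 and lower in 1, although their sum fell from 584 to 4313 CPM in chow males to 27.2 to 398 in HFD males. Epididymal markers were lower in all 7 tested. The part of these markers in the members' VAT differences was not tested, and VAT lanes also differed by diet. The title of HFD male WT replicate 1 carried a different run code from those of the other VAT libraries. The diet effect differed between the genotypes for 2.39% of genes in VAT and for 0 of the 8 members in edgeR, with no unadjusted p under 0.05 and 0 calls by DESeq2.

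Set against the mean diet effect of both fat depots in males, the liver diet effect differed for 7 of the 8 genes (29.5% of all 19424 genes tested). The median of that difference over all genes was 0.08. Liver was more negative for Fgf21 (-2.28, SE 0.44), Pdk4 (-1.57, SE 0.42), Ehhadh (-1.41, SE 0.38), Angptl4 (-1.02, SE 0.23) and Cpt1a (-0.86, SE 0.17) on the log2 scale. It was more positive for Ppara (1.02, SE 0.25) and Vnn1 (1.97, SE 0.40). The adjusted p in edgeR ran from 0.000183 for Fgf21 to 0.00545 for Pdk4. Acot1 did not pass (-0.21, SE 0.61, adjusted p = 0.906). Without the libraries over 10% ribosomal RNA, Ppara gave 0.61 (adjusted p = 0.216). For Cpt1a the signs were opposite and called in all 3 tissues, lower on HFD in liver and higher in SAT and VAT. Ehhadh was lower on HFD in all 3, the SAT call being the weak one given above.

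**Figure D4:**
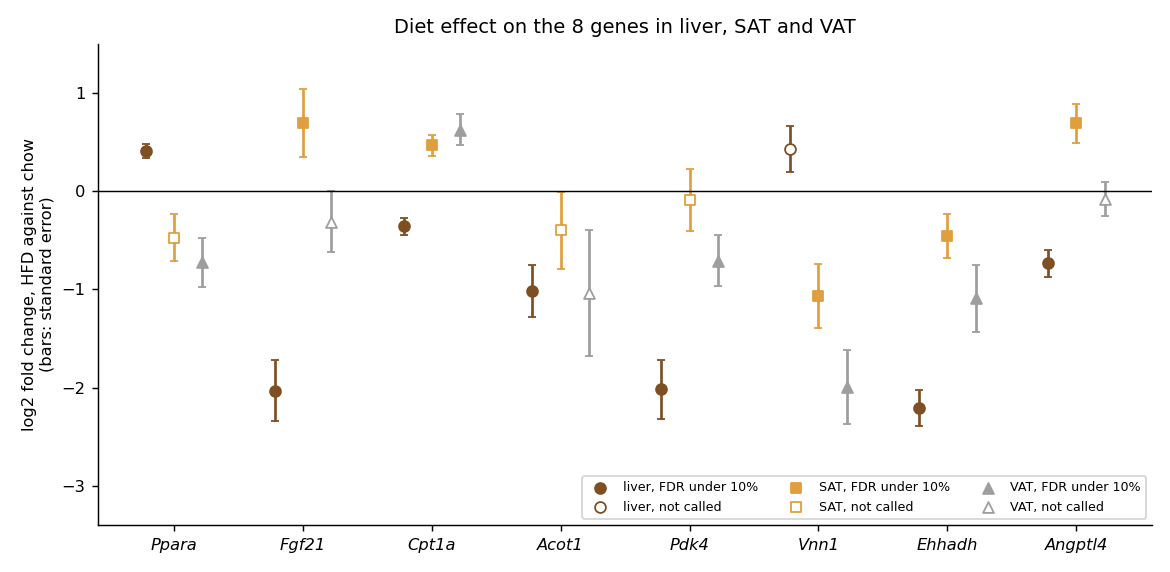
Fitted log2 fold change of HFD against chow for each gene in liver (circles), SAT (squares) and VAT (triangles), with standard errors; filled symbols passed an FDR of 10%. Cpt1a lies below 0 in liver (-0.36) and above it in both fat depots, and Ppara above 0 in liver (0.41) and below it in both, its SAT value (-0.47) not called.

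Between KO and WT in SAT over both diets and sexes, Pdk4 was called alone of the 8 (0.84, SE 0.26, edgeR adjusted p = 0.0987), against 4.33% of all genes. That call was lost on leaving out 19 of the 23 libraries one at a time, with an adjusted p of 0.101 to 0.188, and was kept without HFD female KO replicate 2, HFD female WT replicate 2 or 3, or chow KO replicate 4. Angptl4, at 0.50 (SE 0.17, adjusted p = 0.115), was called without HFD female KO replicate 2, HFD female WT replicate 2 or chow KO replicate 4.

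On chow alone, 4 of the 8 genes were higher in KO SAT, against 31.3% of all genes called in either direction. Pdk4 was at 957, 644, 292 and 112 CPM in KO and 116, 223, 120 and 273 in WT. Its KO libraries spanned the whole WT range, and the highest of them, replicate 1, held 22379 CPM of skeletal muscle markers, where the other 7 chow libraries held 66.6 to 851. The Pdk4 difference was 1.45 (log2, SE 0.43, edgeR adjusted p = 0.0275), and 0.94 (adjusted p = 0.126) without KO replicate 1. Angptl4 was higher by 1.14 (SE 0.23, adjusted p = 0.00583). Ppara was at 15.5, 9.43, 21.99 and 8.59 CPM in KO and 8.38, 7.81, 3.83 and 8.12 in WT, without overlap. It was higher by 0.99 (SE 0.31, edgeR adjusted p = 0.0311), with 0.67 (adjusted p = 0.133) without KO replicate 3 and 0.81 (adjusted p = 0.105) without WT replicate 3. Fgf21 was higher by 1.49 (SE 0.49, adjusted p = 0.0395), with 0.91 (adjusted p = 0.208) without KO replicate 2 and 1.12 (adjusted p = 0.144) without WT replicate 3. Vnn1, at 0.88 (adjusted p = 0.149), was called without KO replicate 4 (1.10) or WT replicate 4 (1.41), and Cpt1a, at 0.29 (adjusted p = 0.169), without KO replicate 4 (0.42). With 2 surrogate variables 0 of the 8 were called in edgeR, the log2 differences being 0.27 for Pdk4, 0.53 for Angptl4, 0.64 for Ppara and 0.85 for Fgf21 (adjusted p of 0.259 to 0.862). Without libraries over 10% ribosomal RNA, which left 1 WT and 3 KO libraries on chow, 0 were called either, with differences of 1.503 for Pdk4, 1.58 for Angptl4, 1.77 for Ppara and 2.85 for Fgf21 (adjusted p of 0.109 to 0.196). In that fit the lone WT library is assumed to vary like the other groups.

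The chow SAT groups differed in ribosomal RNA and in tissue markers as well. The ribosomal RNA gene took 22.6%, 18.3%, 0.0259% and 14.4% of counts in WT and 18.2%, 0.0213%, 0.0211% and 3.24% in KO. Adipocyte markers were higher in KO in 7 of 8, summing to 18181, 20847, 20645 and 12952 CPM in KO and 8987, 11060, 6879 and 14374 in WT. Lymph node markers summed to 5.45, 6.84, 26.9 and 443 CPM in KO and 610, 638, 609 and 203 in WT, and 0 of the 8 passed the test. KO replicate 4 had the fewest adipocyte marker reads of its group and the most lymph node marker reads, and WT replicate 4 the reverse within WT. Endothelial markers were higher in KO in 3 of 6 and muscle markers in 3 of 8. Mitochondrial fatty acid oxidation genes were higher in KO in 16 of 17, against 3403 of all 18366 genes tested. Whether those calls held with 2 surrogate variables was not examined. The part of ribosomal RNA and of these markers in the members' differences was not tested.

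On HFD, 0 of the 8 genes were called between KO and WT SAT of males (0% of all genes, no member with an unadjusted p under 0.05), and 0 in females (0.0109% of all genes) in edgeR, and DESeq2 called 0 of the 8 in both. Pdk4 in HFD males was nonetheless at 310, 327, 479 and 341 CPM in KO and 186, 229, 228 and 282 in WT, without overlap (exact permutation p = 0.0286, 4 against 4, 1 of 8 genes looked at). Its fitted difference was 0.65 (SE 0.43, edgeR adjusted p = 0.683). The diet effect differed between genotypes for 1.77% of all genes in SAT and for 0 of the 8 in edgeR, of which 3 had an unadjusted p under 0.05. Without chow KO replicate 4, that test called Ppara (-1.28), Fgf21 (-1.93), Pdk4 (-1.18) and Angptl4 (-1.14) among 4937 genes in all, against 325 with every library. Without chow WT replicate 4 it called Angptl4 alone of the 8 (-1.03). DESeq2 called Angptl4 alone in it (-0.88, adjusted p = 0.0845). In VAT, KO against WT called 0 of the 8 in edgeR (0.00527% of all genes), with no unadjusted p under 0.05 and 0 calls by DESeq2.

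Sex was compared in fat, where the females were all on HFD. In SAT, 2 of the 8 genes were called against 18.3% of all genes. Acot1 was at 4.76, 4.25, 4.86 and 4.46 CPM in female KO and 7.97, 3.60 and 5.78 in female WT. In HFD males it was at 0.851, 1.19, 0.347 and 0.609 CPM in KO and 0.593, 0.440, 0.166 and 0.551 in WT, and in chow males it did not exceed 1.81. All 7 female libraries were above all 16 male libraries. Acot1 was 8.45-fold higher in females (log2 3.08, SE 0.40, edgeR adjusted p = 7.21e-06), with the same uncertainty over reads shared with its paralogs. Acot2 gave -0.07 (SE 0.19, adjusted p = 0.844). Mammary epithelium markers were higher in females in all 7 tested, summing to 140 to 358 CPM against at most 22.4 in males, and endothelial markers were lower in all 6. The part of these markers in the Acot1 difference was not tested. Female and male fat libraries shared no lane in SAT or VAT, so sex and lane cannot be told apart.

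Angptl4 in female SAT was at 399, 346, 417 and 382 CPM in KO and 340, 383 and 396 in WT, below all 8 HFD males (454 to 721). It was lower in females (-0.59, SE 0.20, edgeR adjusted p = 0.0588), a call lost without HFD female KO replicate 2, 3 or 4, HFD female WT replicate 1 or HFD male WT replicate 1, 3 or 4. Cpt1a (-0.27, adjusted p = 0.132) was called without HFD female KO replicate 1 (-0.31) or chow KO replicate 2 (-0.22). In VAT, 3 of the 8 were called against 34.6% of all genes. Ppara was at 9.05, 5.01, 7.38 and 8.20 CPM in female KO and 11.2, 12.6 and 6.52 in female WT VAT, overlapping the HFD males. It was higher in females (0.80, SE 0.25, edgeR adjusted p = 0.0265), and Pdk4 (-0.73, SE 0.27, adjusted p = 0.0515) and Cpt1a (-0.43, SE 0.17, adjusted p = 0.0638) were lower. The Pdk4 call was lost without HFD female WT replicate 1, and the Cpt1a call without HFD female KO replicate 4, HFD female WT replicate 1 or 2, or HFD male WT replicate 3. Macrophage markers were lower in female VAT in 6 of 7, adipocyte markers higher in 7 of 8 and endothelial markers higher in 5 of 6, and their part was not tested. Acot1 in VAT was not called between the sexes (-1.29, SE 0.69, edgeR adjusted p = 0.171), but was with 2 surrogate variables (-1.16, adjusted p = 0.0235).

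In chow male VAT, Acot1 was at 8.35, 0.612, 1.03 and 0.192 CPM in KO and 0.934, 8.86, 0.924 and 0.327 in WT. The high value in each genotype came from the library with the most epididymal marker reads, which summed to 13243, 59.6, 79.6 and 1.82 CPM in KO and 65.4, 4324, 3.85 and 12.7 in WT in the same order. Outside these libraries, male VAT held 0.192 to 2.13 CPM of Acot1. The part of epididymal tissue in the Acot1 values was not tested.

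**Figure D5:**
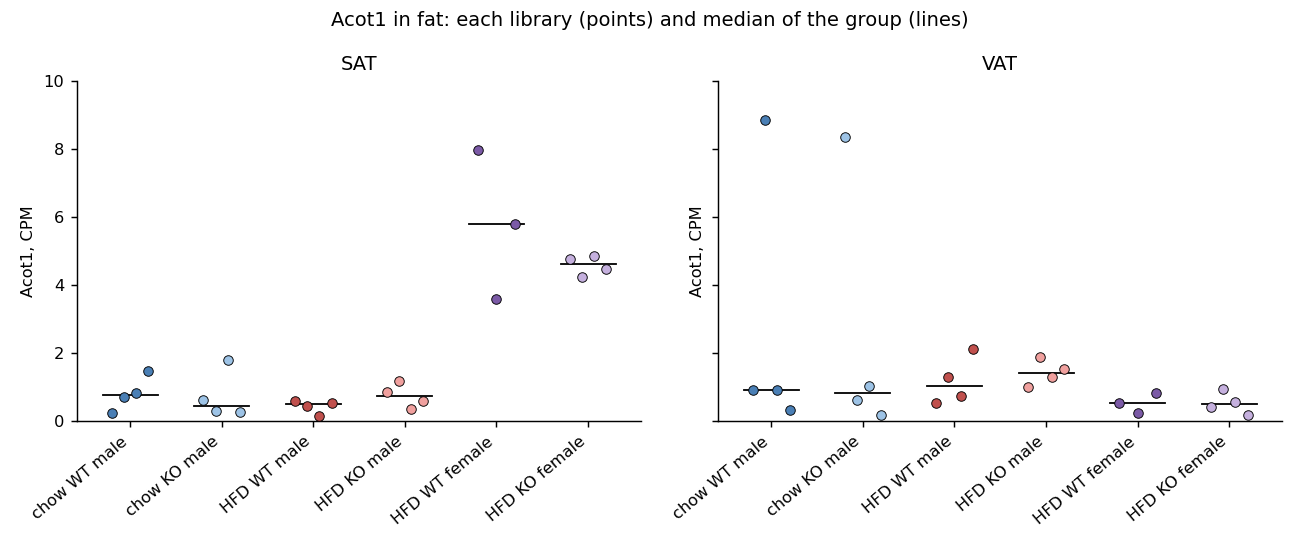
Acot1 in CPM (linear axis from 0) in SAT (left) and VAT (right) by diet, genotype and sex, each point a library and each line a group median. The 7 female SAT libraries lie at 3.60 to 7.97 CPM, and the high chow VAT libraries at 8.35 and 8.86.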

How the data were processed

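RNA of 16 liver and 46 fat samples was sequenced with a stranded library kit (TruSeq). The authors aligned the reads to GRCm38 (mm10) with STAR and deposited raw counts per GENCODE M11 gene, from the STAR count option, for all 62 libraries in 1 table. Which strand column was kept is not given in the sources used here. Ensembl identifiers were matched to symbols through a GENCODE GRCm38 annotation for 99.3% of the 48795 genes.

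Groups came from the labels (tissue, sex, diet and genotype). Counts were tested per tissue with edgeR 4.0.16 under R 4.3.3 (TMM, filterByExpr on groups, quasi-likelihood F test, Benjamini-Hochberg over all genes tested, FDR of 10%, as in the study), with diet, genotype and, in fat, sex as additive terms. Contrasts within a diet, a genotype or a sex, the genotype difference in the diet effect, and liver against fat were fitted on group means. The standard error is the absolute log2 fold change divided by the square root of F. The RNA quality values and hidden factors that the study adjusted for were not used here, and 2 surrogate variables (sva 3.50.0) were an alternative. Single genes were tested by exact two-sided permutation of log2(CPM + 0.1) or, between tissues, log2(TPM + 0.01), unadjusted. TPM used merged exon length and left out the ribosomal RNA gene. Correlations used log2 CPM with a prior count of 2.

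Total counts per library ran from 4959783 to 28723319, and a gene's precision falls with its count. Named are the 8 genes, Fam13a, up to 5 called genes with the smallest p per pathway list in liver, and the 3 genes most alike to each member; some genes that meet this rule are not reported here. The members and lists were chosen with earlier results of these data known, so their counts are not independent support. Alternatives were other size factors (DESeq2 1.42.0), all genes with a count kept, a minimum of 10 counts per library for every gene, the DESeq2 Wald test, the bias-corrected quasi-likelihood test, an FDR of 5%, removal of the ribosomal RNA gene, a group-means model, male libraries alone in fat, only the groups compared in liver, and leaving out each library. Fits without libraries over 10% ribosomal RNA, and 0.5 or 1 CPM added before the log, were chosen after seeing the data. Of the main fits, only the diet term in each tissue and liver against fat were tried on simulated counts, and no other comparison was.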

Additional observations from a re-analysis of the deposited data

Results flagged for a closer look

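Of 112 sets of 4 libraries (8 genes in each group of 4), 8 held a library far from the other 3, where chance gives about 1 in 20. In liver, HFD WT replicate 1 stood above its group for Fgf21 (5.59 CPM, the others at 1.09 to 1.41) and for Angptl4 (65.4 CPM, the others at 45.1 to 47.5). It was also the only HFD liver library from its lane. Chow KO replicate 4 stood below its group for Acot1 (54.6 CPM, the others at 128 to 137) and Vnn1 (85.9 CPM, the others at 165 to 179). This library also had 30.5% ribosomal RNA and Fam13a within the WT range. Chow KO replicate 1 had more ribosomal RNA, 45.9%, with Acot1 at 132 CPM and Vnn1 at 179 CPM. In SAT, Ppara was at 3.83 CPM in chow WT replicate 3, where the others were at 7.81 to 8.38. In VAT, Cpt1a was at 177 CPM in chow WT replicate 2, where the others were at 94.0 to 103. Acot1 in VAT was at 8.35 CPM in chow KO replicate 1 (the others at 0.192 to 1.03) and at 8.86 CPM in chow WT replicate 2 (the others at 0.327 to 0.934), the libraries richest in epididymal markers.

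The diet effect in liver differed from the mean of both fat depots, by the test of the difference itself, for Pdk4 (-1.57), Fgf21 (-2.28), Vnn1 (1.97), Ppara (1.02), Ehhadh (-1.41), Angptl4 (-1.02) and Cpt1a (-0.86), each on the log2 scale.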

How the results depend on the processing

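No paired analysis was possible because the labels carry no replicate numbers and do not link the tissues of a mouse. Of 47 called values of the members in the comparisons reported, 0 changed sign under any alternative, and of 105 uncalled values 43 changed sign under at least 1. In liver, the number of members called between the diets was 7, and 6 to 8 under the alternatives (7 to 8 on leaving out 1 library), while between genotypes and for the genotype difference in the diet effect it stayed at 0 in all of them. In SAT, the count of 5 between the diets was 3 at an FDR of 5%, with no low-count filter or in males alone, 2 without the libraries over 10% ribosomal RNA, and 3 to 6 on leaving out 1 library. Between genotypes in SAT the count of 1 became 0 with DESeq2 size factors, no filter, an FDR of 5% or without those libraries (Pdk4 at 0.85 against 0.84, adjusted p = 0.265). It became 2 with the DESeq2 test, 2 surrogate variables, at least 10 counts, group means or males alone, and was 0 to 2 on leaving out 1 library. On chow in SAT the 4 became 0 with 2 surrogate variables (log2 differences of 0.27 to 0.85) or without those libraries (1.503 to 2.85, with 1 WT library left), and 2 to 6 on leaving out 1. The SAT genotype difference in the diet effect went from 0 to 1 with the DESeq2 test, and 0 to 4 on leaving out 1. The sex count in SAT went from 2 to 1 with no filter or an FDR of 5% (1 to 3 on leaving out 1 library). It was also 1 with at least 10 counts, where Acot1, with as few as 2 counts in a library, was not tested. In VAT the sex count went from 3 to 1 at an FDR of 5% and to 4 with 2 surrogate variables (1 to 3 on leaving out 1). The VAT diet count of 5 was 2 without those libraries, 6 with 2 surrogate variables (Angptl4 at -0.24, adjusted p = 0.0789) and 4 to 5 on leaving out 1, and liver against fat gave 6 to 8 around 7, with only the 16 liver libraries left out in turn. The causes were not tested. Counts over all genes moved further: for KO against WT, 0 to 91 in liver against 0, 5 to 2487 in SAT against 796, 0 to 256 in VAT against 1, and 1 to 6267 in SAT on chow against 5741 (2826 to 9454 on leaving out 1 library). The other counts over all genes that moved by over 1.5 times were KO on HFD in liver (2 to 158 against 9), KO on chow in liver (0 to 32 against 1), KO on HFD in SAT (0 to 176 against 0), KO in females (1 to 11 against 2), the genotype difference in the diet effect in liver (0 to 43 against 0), SAT (0 to 1334 against 325, and 1 to 4937 on leaving out 1 library) and VAT (0 to 742 against 454, and 1 to 1022), and SAT diet (6750 to 10961 against 10545), SAT sex (2120 to 4987 against 3364) and liver against fat (3486 to 6421 against 5732). Of 72 named pathway genes in liver, 69 kept their call under every alternative that tested them, and Angptl8 and Acot4 were among those that did not. Genes short of 10 counts in any liver library, Asns among them, were not tested in the fit with that minimum. Depth limits Fgf21 in liver, with 1 count in a single library, so the minimum of 10 counts left it untested there.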
